A study of Mus musculus with 2 samples.

Results

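Tnfrsf23 and Ccdc126 neutrophils are GR-1+ cells of anti-PD1-treated 4T1 tumors that were chosen by the transcripts they held, and 118 of 4390 barcodes in the series met the rule. A barcode first had to carry 250 to 5000 genes, at most 27000 UMIs (unique molecular identifiers, the counted mRNA molecules) and at most 12.5% mitochondrial UMIs, which 3220 barcodes did. The neutrophil gate then asked for at least 5 UMIs of S100a8, S100a9, G0s2 and Csf3r together, for more of these than of the macrophage genes Apoe, C1qa, Lyz2 and Csf1r, for fewer than 5 UMIs of the granule genes Camp, Ngp and Ltf, and for fewer than 5 UMIs of Retnlg and Mmp8. Of the 783 cells in that gate, those were kept in which at least 2 of the 5 genes Tnfrsf23, Ccdc126, Ciart, Ero1l and Il15 had a UMI, provided that this number was above the number of detected genes among Mirt1, Il1f9, Irg1, Csf1 and Hcar2. The library labelled 4T1p gave 21 of these cells and the library labelled 4T1m gave 97.

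The tumors grew in the mammary fat pad of female BALB/c mice aged 8 to 10 weeks from 4T1, a triple-negative breast carcinoma line. 4T1p is the parental line, which resists anti-PD1 therapy, and 4T1m is a polyclonal derivative made by exposure to the mutagen MNNG, which responds to it. Mice of both arms received anti-PD1 for 2 weeks, GR-1+ cells were taken with magnetic beads, and each tumor type was sequenced as 1 library with 10x Genomics 3′ v3 chemistry. The antibody GR-1 binds Ly6G and Ly6C, the number of mice behind a library is not given in the sources used here, and tumors treated with control IgG were not analysed here. The files of the library labelled 4T1p list 1641 barcodes with 9021132 UMIs in all (2066 in the median barcode), and those of the library labelled 4T1m list 2749 barcodes with 14840190 UMIs (2763 in the median barcode). Each of these medians is the one that the methods of the study give for the other tumor type, so the libraries are named by their labels throughout, and which library is higher or lower holds for the labels as deposited. The libraries shared 0 cell barcodes.

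With 1 library per tumor type there are no replicates, no test was possible, and every difference below is a description of these libraries. Levels are summed UMIs of a group of cells as counts per 1000000 UMIs (CPM), and intervals are 95% exact Poisson intervals for levels, exact conditional binomial intervals for log2 ratios and Clopper-Pearson intervals for shares. All of them cover counting error only.

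Neutrophils that enter a tumor meet low oxygen, little glucose and many signals that prolong or end their short life. When oxygen falls, the prolyl hydroxylases that mark hypoxia-inducible factor (HIF) for destruction slow down, and HIF switches on genes for glycolysis, glucose uptake, blood vessel growth and mitochondrial turnover. Neutrophils rely on glycolysis for most of their energy. Inflammatory neutrophils, in contrast, are commonly recognized by NF-kB target genes and by cytokines such as IL-1β.

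The 5 genes that chose the cells have different roles. Tnfrsf23 encodes a decoy receptor for the death ligand TRAIL that lacks a death domain, Ccdc126 a coiled-coil domain protein, Ciart a repressor of the circadian clock, Ero1l the oxidase that keeps disulfide bonds forming in the endoplasmic reticulum (ER), and Il15 a cytokine that sustains NK cells and memory T cells. Stretches of 100 bases upstream of the annotated start are shown for Ero1l, Ccdc126, Ciart and Tnfrsf23, and for P4ha1, Ddit4 and Ldha, genes outside the rule that were higher in the chosen cells below and were picked for display because they hold the letters described next. Kdm3a, Higd1a, Plin2, Gpi1, Tpi1, Gapdh and Eno1, which were also higher in the chosen cells, had 0 matches. They are RefSeq sequences on GRCm38.p6, written 5′ to 3′ on the strand of the gene, and capitals mark ACGTG on either strand (CACGT when read on the other), the core letters of the element that HIF binds, or CACGTG, which holds these letters on both strands.
Ero1l: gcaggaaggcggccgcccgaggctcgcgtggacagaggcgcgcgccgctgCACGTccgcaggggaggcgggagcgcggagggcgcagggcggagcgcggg
Ccdc126: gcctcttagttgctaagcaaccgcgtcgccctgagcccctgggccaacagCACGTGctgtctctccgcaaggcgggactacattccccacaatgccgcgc
Ciart: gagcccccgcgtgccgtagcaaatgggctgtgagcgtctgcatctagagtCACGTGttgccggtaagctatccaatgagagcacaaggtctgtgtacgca
Tnfrsf23: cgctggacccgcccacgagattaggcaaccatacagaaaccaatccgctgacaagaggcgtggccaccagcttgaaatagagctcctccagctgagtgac
P4ha1: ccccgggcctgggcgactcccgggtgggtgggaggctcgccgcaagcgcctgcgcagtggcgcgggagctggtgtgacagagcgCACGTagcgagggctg
Ddit4: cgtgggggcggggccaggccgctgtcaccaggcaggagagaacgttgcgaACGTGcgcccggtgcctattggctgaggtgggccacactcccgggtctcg
Ldha: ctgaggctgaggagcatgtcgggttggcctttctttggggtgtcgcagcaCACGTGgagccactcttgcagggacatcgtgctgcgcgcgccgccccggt

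The Ero1l stretch lies at chr14:45318586-45318685 (minus strand), that of Ccdc126 at chr6:49319158-49319257 (plus), that of Ciart at chr3:95882295-95882394 (minus) and that of Tnfrsf23 at chr7:143685876-143685975 (minus). The P4ha1 stretch lies at chr10:59323196-59323295 (plus), that of Ddit4 at chr10:59951908-59952007 (minus) and that of Ldha at chr7:46845609-46845708 (plus). ACGTG was present within 250 bases before an annotated start of 3 of the 4 choosing genes whose promoter is shown here, all but Tnfrsf23. In 2 of these, Ccdc126 and Ciart, the matches were CACGTG. Of the genes Mirt1, Il1f9, Irg1, Csf1 and Hcar2, 4 were matched and 1 (25%) held ACGTG. It was present in 12 of 16 matched hypoxia targets (75%), in 10 of 19 glycolysis genes (52.6%) and in 1 of 10 matched NF-kB genes (10%), against 4998 of 27025 genes with a promoter sequence (18.5%). Genes with several annotated starts were counted if any start had the match. Vegfa, Hilpda, Ak4, Mxi1, Aldoa, Pkm and Ldha had it at some of their starts only. Counted by promoter, the background was 5444 of 32851 (16.6%). The part of the number of starts in these shares was not tested. These matches describe letters, not bound sites.

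The levels of the choosing genes are set by the rule and are given as values only. Tnfrsf23 stood at 753 CPM (524 to 1047) in the cells of the 4T1p library and 756 CPM (635 to 893) in those of the 4T1m library, with a UMI in 85.7% and 76.3% of the cells. Ero1l stood at 2215 and 2765 CPM, Ccdc126 at 667 and 619 CPM, Il15 at 344 and 383 CPM, and Ciart at 194 and 361 CPM. The same genes were detected in the rest of the gate, so the rule takes 1 end of a range. In the 508 cells of the same gate that hold at least 2 of the genes Mirt1, Il1f9, Irg1, Csf1 and Hcar2 and more of these than of the 5 choosing genes, called Mirt1 and Il1f9 neutrophils here, Tnfrsf23 stood at 364 and 303 CPM and Ero1l at 685 and 861 CPM. The 157 gated cells in neither class, called other gated neutrophils, held 487 and 523 CPM of Tnfrsf23 and 1527 and 1506 CPM of Ero1l. On the macrophage side of the libraries Tnfrsf23 was at 12.3 and 16.4 CPM and Ccdc126 at 5.59 and 7.53 CPM, whereas Ero1l was at 139 and 356 CPM.

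**Figure D1:**
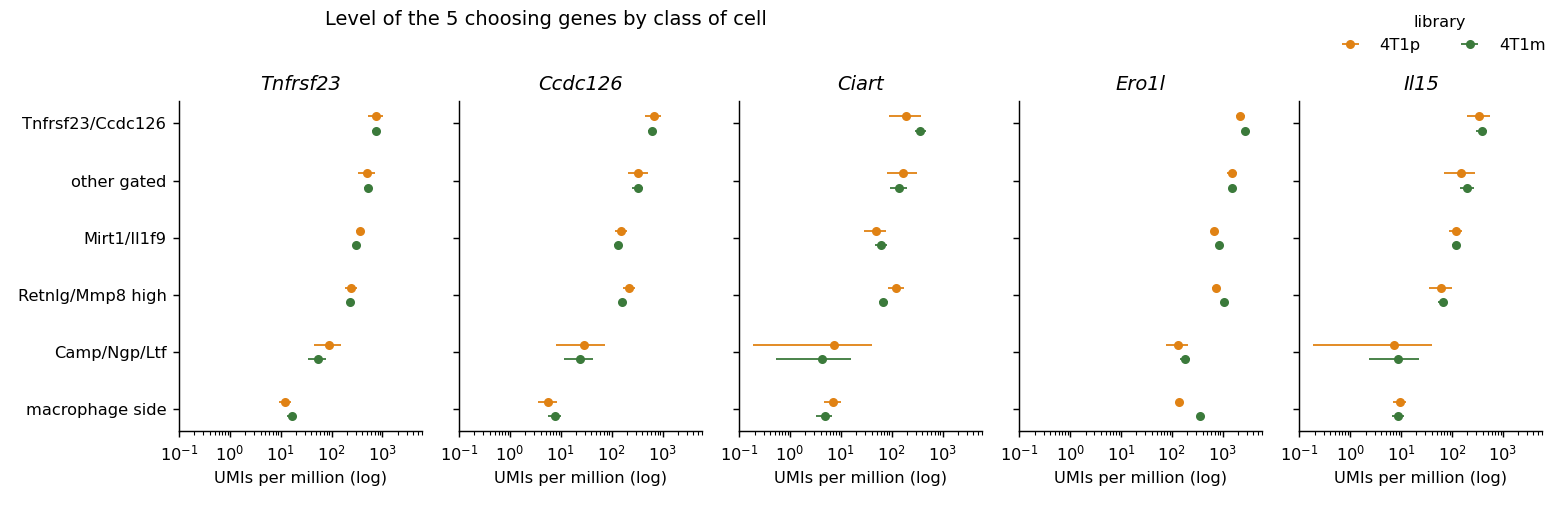
Summed level in CPM (log axis) of the 5 genes that chose the cells, in 6 classes of cells of the libraries labelled 4T1p and 4T1m, with 95% exact Poisson intervals that cover counting error only. Tnfrsf23 and Ccdc126 were lowest on the macrophage side, at 12.3 and 16.4 CPM for Tnfrsf23 and 5.59 and 7.53 CPM for Ccdc126, while Tnfrsf23 stood at 487 and 523 CPM in the other gated neutrophils.

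Each of the 5 genes was also read in cells chosen without it, that is by the other 4 genes with the same limits. In the 4T1m library all of them remained above the Mirt1 and Il1f9 neutrophils, with a log2 ratio of 1.41 for Ciart (78 cells chosen), 1.23 (0.70 to 1.72) for Ccdc126 (58 cells), 0.76 (0.48 to 1.04) for Ero1l (39 cells), 0.64 (-0.03 to 1.26) for Il15 (61 cells) and 0.57 (0.09 to 1.03) for Tnfrsf23 (49 cells). In the 4T1p library 7 to 15 cells were chosen, the log2 ratios were 0.81 (-0.43 to 1.82) for Tnfrsf23, 0.59 (-0.14 to 1.24) for Ero1l and 0.51 (-1.15 to 1.79) for Ccdc126, all with intervals that included 0, and Ciart and Il15 were below 0 with 1 UMI each. Against the other gated neutrophils the same ratios lay between -0.29 and 0.48 in the 4T1m library and between -3.28 and 0.32 in the 4T1p library. In the 4T1p library all but Tnfrsf23 were below 0. The interval left out 0 there for Ero1l, at -0.73 (-1.51 to -0.02), and for Il15, at -3.28 (-8.68 to -0.58). The gene left out of the rule was thus above the Mirt1 and Il1f9 neutrophils for all 5 genes in the 4T1m library, with an interval that included 0 for Il15. Against the other gated cells it lay on either side of 0 in the 4T1m library and mostly below 0 in the 4T1p library.

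The label neutrophil was checked against 13 marker genes, of which 12 had a UMI in the chosen cells. The calprotectin genes S100a8 and S100a9, which are among the most abundant transcripts of neutrophils and are part of the gate, stood at 26342 and 36384 CPM in the 4T1p library and 21802 and 34209 CPM in the 4T1m library. Cxcr2, the chemokine receptor that brings neutrophils out of the marrow and into tissue, stood at 237 and 164 CPM, and Clec4e, a pattern receptor of myeloid cells, at 2516 and 3291 CPM. Of 8 compared markers outside the rule, 7 were below 0 in both libraries against the Mirt1 and Il1f9 neutrophils defined above, with summed log2 ratios of -0.70 (-0.87 to -0.54) and -0.69 (-0.77 to -0.62), and 1 of them, Hdc, was past 2-fold in both. Ly6g, the gene of the Ly6G antigen, had 0 UMIs in all 118 cells, against 96.1 and 136 CPM in the Retnlg and Mmp8 high neutrophils and 1426 and 1062 CPM in the neutrophils with Camp, Ngp and Ltf. A count of 0 allows a level of up to 64.5 CPM in the 4T1p and 16.4 CPM in the 4T1m cells (3 counts of the total), and both limits are below the levels of those classes in the same library. The Mirt1 and Il1f9 neutrophils, at 29.4 and 15.99 CPM, and the other gated neutrophils, at 50.3 and 4.43 CPM, were below these limits too, so a difference in Ly6g from them was not detectable at this depth. Other lineages left little RNA in the chosen cells. All 3 B cell and all 3 T cell markers were at 0 in both libraries, and of the eosinophil markers Epx, Prg2 and Ccr3 were at 0 and Siglecf had 1 UMI in each library. The 8 macrophage markers summed to 1183 and 805 CPM, most of all Cd74, with Mrc1 at 0 in both libraries and Adgre1 at 0 in the 4T1p library. C1qa, a complement gene of macrophages that the gate uses, was at 129 and 76.7 CPM, against 4863 and 2593 CPM on the macrophage side. Epithelial markers gave 0 and 3 UMIs, fibroblast markers 0 and 1, and platelet markers 0 and 9. Hemoglobin genes gave 2 UMIs in the 4T1p cells and 1387 in the 4T1m cells, of which 1380 (99.5%) came from 1 cell. Without that cell the hemoglobin level in the 4T1m cells was 38.6 CPM.

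The depth of the chosen cells was below that of the Mirt1 and Il1f9 neutrophils. Their median was 2248 UMIs (748 to 5280) and 722 genes in the 4T1p library and 1723 UMIs (531 to 7141) and 667 genes in the 4T1m library, with median mitochondrial shares of 3.50% and 3.39%. The Mirt1 and Il1f9 neutrophils had medians of 2746.5 and 2345.5 UMIs, and the other gated neutrophils 1638 and 1546. Ptprc, the pan-leukocyte gene of CD45, had a UMI in 11 of the 21 cells and 84 of the 97. Doublet scores that would remove 13 and 44 cells of the libraries removed 0 and 1 of the chosen cells.

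The cells differed in how many of the 5 genes they showed. Of the 118 cells, 28 held 2 of the genes, 45 held 3, 33 held 4 and 12 held all 5, the last all from the 4T1m library. The median depth went up along this order, from 1257.5 UMIs for 2 genes to 1682, 2184 and 2371.5 for 3, 4 and 5. Tnfrsf23 and Ero1l were seen together in 82 cells, Ccdc126 and Ero1l in 69, Tnfrsf23 and Ccdc126 in 62, and Ciart and Il15, the least frequent pair, in 21. The cutoff has no gap on either side. In the 4T1p library the hypoxia targets described below stood at 6579 CPM in the 2 chosen cells with 2 of the 5 genes and 1 opposing gene and at 9993 CPM in the 6 cells left out with 2 of each, and at 11831 CPM in the 9 chosen cells with 3 of the genes and 2 opposing ones and at 10092 CPM in the 8 cells left out with 3 of each. In the 4T1m library the same targets stood at 9428 CPM in the 23 chosen cells with 2 of the 5 genes and 1 of the opposing genes, and at 7062 CPM in the 27 cells left out because they held 2 of each. With 3 of the 5 genes, the 24 chosen cells that held 2 opposing genes stood at 11793 CPM and the 18 cells left out with 3 at 9803 CPM.

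Tnfrsf23 and Ccdc126 neutrophils made up 11.7% (7.37 to 17.3) of the gated neutrophils in the library labelled 4T1p and 16.1% (13.2 to 19.3) in that labelled 4T1m. The rule counts detected genes and so reads the depth of a cell. When each cell was thinned to 1000 UMIs, shallower cells were left out and the rule was applied to the thinned counts, the shares were 11.0% (18 of 164 cells, 6.64 to 16.8) and 11.3% (60 of 533 cells, 8.70 to 14.3). Of all 1274 neutrophils, including those with Retnlg and Mmp8 or Camp, Ngp and Ltf, they were 8.43% (5.30 to 12.6) and 9.46% (7.74 to 11.4). At this depth a difference in share between the libraries was not detectable.

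The question of what else distinguishes these cells was addressed against the Mirt1 and Il1f9 neutrophils, the most frequent class of the gate at 71.1% and 63.0% of it. Across 2125 genes, each with 20 UMIs or more in both groups combined in each library, the median log2 ratios were -0.08 in the 4T1p and 0.003 in the 4T1m library. A gene was counted as higher or lower when its log2 ratio was at least 1 or at most -1 in both libraries. By this measure 67 genes (3.15%) were higher and 80 genes (3.76%) were lower in the Tnfrsf23 and Ccdc126 neutrophils. Requiring that the counting interval also leave out 0 in both libraries left 29 lower genes, and thinning to 1000 UMIs gave 30 higher and 46 lower genes. None of the gene lists below holds a gene of the rule, but the cells were selected on counts from the same libraries, and the contrast is not independent of that choice.

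Hypoxia targets were higher as a group. Of 18 listed genes 14 could be compared, 10 were higher past 2-fold in both libraries, none was lower, and 13 were above 0 in both. Their median log2 ratio was 1.29 in the 4T1p and 1.45 in the 4T1m library. Their summed level was 12601 CPM against 4471 CPM in the 4T1p library, a log2 ratio of 1.49 (1.36 to 1.63), and 11186 CPM against 4179 CPM in the 4T1m library, a log2 ratio of 1.42 (1.343 to 1.498). Hilpda, a small protein that blocks lipolysis on lipid droplets, stood at 4301 against 1212 CPM and at 3663 against 1274 CPM, with log2 ratios of 1.83 (1.58 to 2.07) and 1.52 (1.38 to 1.66). Ndrg1, a stress-responsive gene long used as a sign of low oxygen, stood at 581 against 166 CPM and 405 against 117 CPM. P4ha1, a subunit of the prolyl hydroxylase that stabilizes collagen, stood at 817 against 252 CPM and 608 against 204 CPM, and Ddit4, an inhibitor of mTORC1, at 280 against 77.6 CPM and 197 against 41.6 CPM. In all 4 genes the chosen cells were above the comparison cells in either library by more than the counting interval, but the mean log2 ratio of Ddit4, 2.05, was 0.583 in cells chosen without Tnfrsf23. Vegfa, the main growth factor for blood vessels, had log2 ratios of 1.24 and 1.42, and Higd1a, a mitochondrial protein, had 1.81 and 1.45. Kdm3a, a histone demethylase, had 1.64 and 1.59, and Egln1, the oxygen sensor that hydroxylates HIF, 1.22 and 1.10. The mitophagy receptor Bnip3l had 1.19 and 1.03. Its relative Bnip3 had 0.94 and 1.64, and Egln3, another HIF hydroxylase, 0.11 and 1.06. Adm, P4ha2, Ak4 and Car9 were too sparse to compare.

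Glycolysis genes showed the same direction with smaller ratios. Of 18 compared genes 7 were higher past 2-fold and none was lower, with medians of 0.65 and 1.05. Their summed level was 21912 against 10532 CPM in the 4T1p library and 14537 against 7052 CPM in the 4T1m library, log2 ratios of 1.06 (0.96 to 1.16) and 1.04 (0.98 to 1.11). The 7 genes span the pathway from hexose phosphates to lactate. They were Gpi1 (log2 ratios 1.52 and 1.21), Aldoa (1.03 and 1.06), Tpi1 (1.59 and 1.49), Gapdh (1.54 and 1.22), Pgam1 (1.00 and 1.03), Eno1 (1.32 and 1.34) and Ldha (1.32 and 1.52), the enzyme that turns pyruvate into lactate. The glucose transporter Slc2a1 had log2 ratios of 0.48 and 0.74, and the lactate exporter Slc16a3 was below 0 in both libraries at -0.59 and -0.52.

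**Figure D2:**
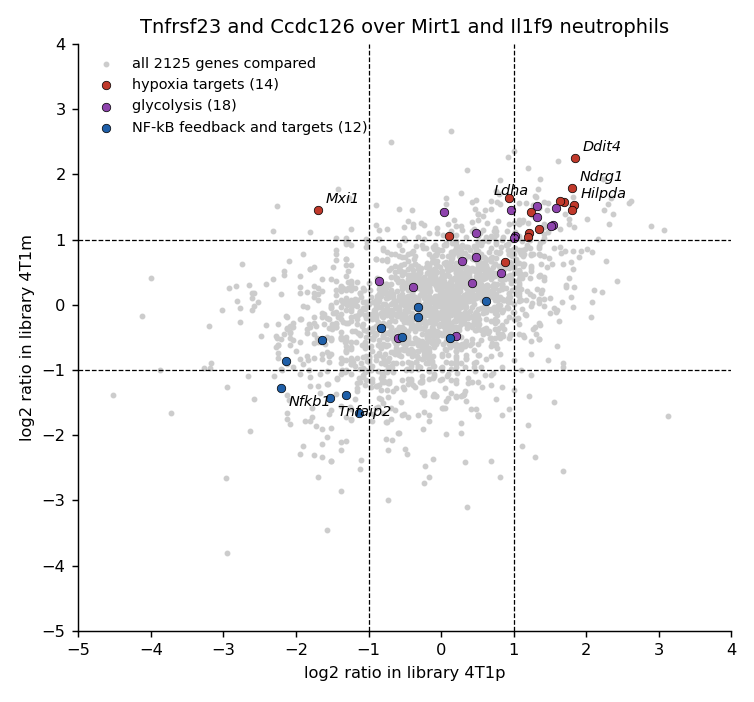
Log2 ratio of CPM of the Tnfrsf23 and Ccdc126 neutrophils over the Mirt1 and Il1f9 neutrophils in the library labelled 4T1p (horizontal axis) and in that labelled 4T1m (vertical axis), 1 point per compared gene, with hypoxia, glycolysis and NF-kB genes in color. The dashed lines mark log2 ratios of 1 and -1, and 10 of 14 hypoxia targets and 7 of 18 glycolysis genes lie past 1 on both axes, while 4 of 12 NF-kB genes lie past -1 on both.

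Single genes of lipid storage, heme breakdown and mitochondria were among the higher ones. Fabp5, a fatty acid carrier, stood at 946 against 187 CPM and 482 against 155 CPM, with log2 ratios of 2.34 (1.76 to 2.90) and 1.64 (1.24 to 2.03). Plin2, which coats lipid droplets and is also on the hypoxia list, had log2 ratios of 1.35 and 1.16, and Plin3, a relative of it, 2.59 and 1.57. These were 2 of the 7 compared genes on the lipid list, with Plin3 named by its rank among all genes. Hmox1, which degrades heme, was the single gene of 9 compared on the NRF2 response list to be higher past 2-fold, at 1656 against 618 CPM and 1270 against 599 CPM. On the same list Slc7a11, the cystine importer, had log2 ratios of -3.87 and -0.99, 5 of the 9 genes were below 0 in both libraries, and the median of the list was -0.80 and -0.55 while its summed level, mostly that of the ferritin genes Fth1 and Ftl1, had log2 ratios of 0.43 and 0.47. Vdac1, the main pore of the outer mitochondrial membrane, stood at 301 against 64.2 CPM and 268 against 70.4 CPM, log2 ratios of 2.23 (1.16 to 3.24) and 1.93 (1.37 to 2.49). Jun, an AP-1 subunit, stood at 2925 against 1156 CPM and 2825 against 829 CPM, the only higher gene of 12 compared on its list. Bax, which opens mitochondria in apoptosis, stood at 237 against 93.7 CPM and 235 against 93.8 CPM.

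The other genes at the top of the ranking were Impa2, an inositol monophosphatase (log2 ratios 2.62 and 1.60), Mrpl45, a mitochondrial ribosomal protein (2.90 and 1.21), Slc32a1, a vesicular amino acid transporter (2.30 and 1.55), Rassf1, a Ras-association domain protein (1.61 and 2.21), Golga7, a palmitoylation cofactor (2.37 and 1.40), and the chaperone Hspa1b (3.07 and 1.14). Hspa1b is the least even of them. It is nearly identical to Hspa1a, so its reads are uncertain, 17 cells held a UMI of it, and 1 cell held 32.2% of its UMIs in the chosen cells. In cells chosen without Ciart or without Ccdc126 its mean log2 ratio was -0.940 and -0.219.

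Genes of NF-kB feedback went the other way. Of 12 compared genes 4 were lower past 2-fold in both libraries and none was higher, with medians of -0.98 and -0.53. The summed level was 9999 against 16603 CPM in the 4T1p library and 10857 against 14694 CPM in the 4T1m library, log2 ratios of -0.73 (-0.87 to -0.60) and -0.44 (-0.51 to -0.37). Tnfaip2, a gene induced by TNF, stood at 344 against 993 CPM and 334 against 903 CPM. Nfkb1, which encodes the p50 subunit, had log2 ratios of -2.20 and -1.27, and the inhibitors Nfkbie and Nfkbid had -1.32 and -1.38, and -1.14 and -1.65. Nfkb1 and Nfkbie had 1 UMI and Nfkbid 3 UMIs in the 4T1p cells, and the intervals of these 3 genes there included 0. Nfkbia, a further inhibitor, had -0.83 and -0.36. Averaged over the libraries the summed log2 ratio was -0.58, and it moved between -0.373 in cells with 2000 to 8000 UMIs and -1.41 in cells chosen without Tnfrsf23. The comparison class is itself chosen for inflammatory genes, among them Il1f9 (interleukin-36γ), Irg1 (the enzyme that makes itaconate) and Csf1 (macrophage colony-stimulating factor), which stood at 4600 and 7436 CPM for Irg1 in that class and 1613 and 3488 CPM in the chosen cells. Hcar2, a receptor for ketone bodies on the same opposing list, was not lower in the chosen cells, at 2838 and 2212 CPM against 2470 and 1955 CPM.

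Single genes of the cytokine, maturity and survival lists were lower too, while others of the survival list were not. Il1b, the gene of IL-1β, stood at 6021 against 12487 CPM and 5705 against 13420 CPM, log2 ratios of -1.05 and -1.23, and was the 1 lower gene of 7 compared cytokines. Hdc, which makes histamine, stood at 344 against 1466 CPM and 761 against 2093 CPM, and the list of maturity and adhesion genes to which it belongs had summed log2 ratios of -0.57 and -0.78. Among 10 compared survival genes Bcl2a1b, Bcl2a1d and Birc3, which oppose cell death, were lower, with log2 ratios of -1.26 and -1.56, -2.12 and -1.66, and -1.95 and -1.07. Bax on the same list was higher, as given above, 4 of the 10 were above 0 in both libraries, and the summed log2 ratios of the list were -0.11 (-0.30 to 0.07) and -0.05 (-0.15 to 0.05). The Bcl2a1 genes are near-identical copies, so the split of reads among them is uncertain, and Bcl2a1d had 1 UMI in the 4T1p cells with an interval that included 0. Mcl1, which neutrophils need to survive, was at 0.07 and 0.01. Other genes of low rank were Saa3, an acute-phase protein (43.0 against 985 CPM and 520 against 1355 CPM), Fgl2 (21.5 against 284 CPM and 110 against 346 CPM), the phosphatase gene Dusp2 and the lymphotoxin gene Ltb. Anxa1, an inhibitor of inflammation stored in granules, had log2 ratios of -2.95 and -1.27. Ifitm6, Sirpb1c, Gramd1a, Pgs1 and Lipg, like Fgl2, Dusp2, Ltb and Anxa1, had 1 UMI each in the 4T1p cells, and for Ifitm6, Gramd1a, Pgs1 and Lipg the 4T1p interval included 0.

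The remaining lists held too few compared genes to be read against the 3.15% of all genes that were higher and the 3.76% that were lower, and their counts are given as a description. None of 11 compared ER stress genes was past it, with summed log2 ratios of 0.20 and 0.18, although Ero1l itself is on the choosing side. None of 7 death receptor genes, 3 clock genes, 4 genes of IL-15 signalling, 11 chemokine genes, 9 immunosuppression genes, 10 lysosome genes and 9 MHC class I genes was past 2-fold in both libraries, nor any but Gbp2 (-1.44 and -1.36) of 16 interferon-stimulated genes and Anxa1 of 4 granule genes. The summed granule level had log2 ratios of -0.03 (-0.46 to 0.37) in the 4T1p and -1.02 (-1.28 to -0.78) in the 4T1m library. That of the immunosuppression list had 0.47 (0.28 to 0.66) and 0.51 (0.41 to 0.60), with 5 of 9 genes above 0 in both libraries and 0 below in both. The chemokine list had -0.24 (-0.29 to -0.18) and -0.53 (-0.56 to -0.50), with 8 of 11 genes below 0 in both libraries and 1 above in both. Tnfrsf26, a neighbor and relative of Tnfrsf23, had log2 ratios of 0.76 and 1.07, and Cd274, which encodes PD-L1, had 0.95 and 0.66. Cxcl2, a chemokine for neutrophils, had -0.33 and -0.54. For IL-15 signalling the median (0.19 and 0.54) and the summed ratio (-0.15 and -0.02) differed in sign, as did those of the AP-1 list in the 4T1m library (-0.09 and 0.21).

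Per cell, the lower quartile of hypoxia targets in the chosen cells was at or above the upper quartile of the Mirt1 and Il1f9 neutrophils in both libraries. After thinning to 1000 UMIs, the 19 and 87 chosen cells deep enough held medians of 13 (quartiles 7.5 and 15.5) and 10 (6 and 14) UMIs of hypoxia targets. The Mirt1 and Il1f9 neutrophils held medians of 3 (1 and 7) and 3 (1 and 6), and the other gated neutrophils 6.5 and 6. For glycolysis genes the medians were 20 and 15 UMIs against 10 and 6 in the Mirt1 and Il1f9 neutrophils, and for NF-kB genes 7 and 6 against 15 and 13. The other gated neutrophils held 19 and 8.5 for glycolysis and 6 and 8 for NF-kB genes, so that in the 4T1p library their medians were within 1 UMI of those of the chosen cells.

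**Figure D3:**
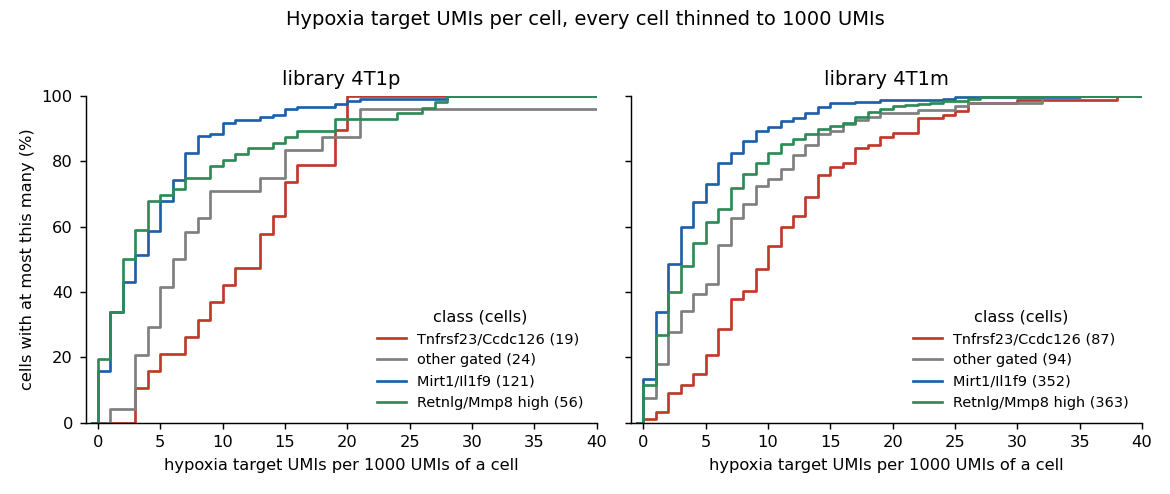
Cumulative share of cells (vertical axis, percent) by the number of hypoxia-target UMIs per 1000 UMIs of a cell (horizontal axis, drawn to 40), for 4 classes of neutrophils in the libraries labelled 4T1p and 4T1m. The Tnfrsf23 and Ccdc126 neutrophils had medians of 13 and 10, against 3 and 3 for the Mirt1 and Il1f9, 6.5 and 6 for the other gated and 2.5 and 4 for the Retnlg and Mmp8 high neutrophils, and in 4T1p, where no chosen cell exceeded 20, 2 Mirt1 and Il1f9, 3 other gated and 4 Retnlg and Mmp8 high neutrophils did.

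All gated neutrophils were then ordered by the number of choosing genes minus the number of opposing genes. The summed hypoxia level went up with this number, from 1965 CPM at -5 or -4 to 6141 CPM at -1, 10968 CPM at 0 and 13244 CPM at 1 in the 4T1p library, and was 8596 CPM in the 5 cells at 2 or more. In the 4T1m library it was 2515, 5574, 8245 and 10808 CPM at the same points and 10537 CPM in the 32 cells at 2 or more. The NF-kB level was 16318 CPM at the low end, 18412 CPM at -2 and 11585 CPM at 1 in the 4T1p library, and 15325 CPM at the low end, 15655 CPM at -3 and 10484 CPM at 1 in the 4T1m library. From -2 to 1 it went down while the hypoxia level went up in both libraries. Below these highest points it did not go down along the order in either library, and at 2 or more it was 2306 and 10340 CPM. The median depth per cell was also lower at the high end, at 1490 and 1711 UMIs against 2502.5 and 2819 at the low end. The part of depth in this ordering was not tested beyond the thinned values above.

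**Figure D4:**
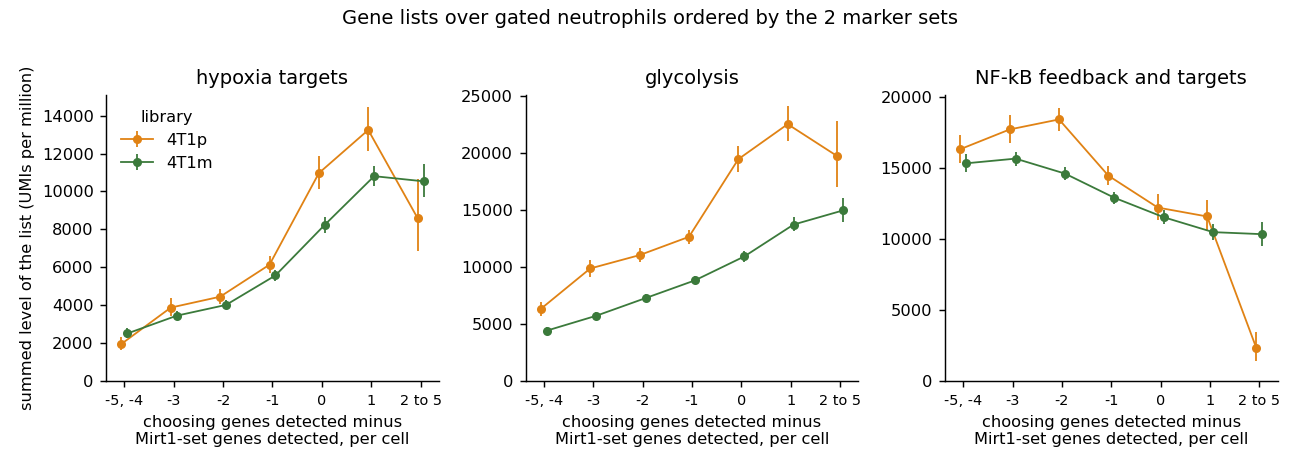
Summed level in CPM of hypoxia, glycolysis and NF-kB genes in all gated neutrophils, grouped by the number of detected choosing genes minus detected opposing genes (horizontal axis), in the libraries labelled 4T1p and 4T1m, with 95% exact Poisson intervals. Hypoxia targets went from 1965 and 2515 CPM at the left end to 13244 and 10808 CPM at 1, and NF-kB genes were highest at -2 in 4T1p (18412 CPM) and at -3 in 4T1m (15655 CPM) and stood at 11585 and 10484 CPM at 1.

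The 157 other gated neutrophils are the cells of the gate in neither class. Of these, 28 of 31 in the 4T1p library and 98 of 126 in the 4T1m library held as many choosing as opposing genes. Few genes differed past 2-fold between them and the chosen cells. Of 697 compared genes 5 (0.717%) were higher and 2 (0.287%) lower past 2-fold in both libraries. The higher genes were Fabp5 (log2 ratios 1.73 and 1.37), Vdac1 (1.36 and 1.28, with an interval in the 4T1p library of -0.05 to 2.91), the linker histone gene Hist1h1c (1.43 and 1.09), Impa2 (1.30 and 1.13) and the interferon-stimulated gene Rsad2 (1.10 and 1.38), of which 1 cell held 40.5% of the UMIs. The lower genes were Saa3 (-4.50 and -1.03) and Gbp7, an interferon-induced GTPase (-1.23 and -1.28, with intervals that included 0). These calls rested on the choosing genes too, since without Ero1l the mean log2 ratios of Impa2 and Hist1h1c were -0.797 and -0.633, and without Tnfrsf23 that of Fabp5 was -0.204. That of Vdac1 was 0.535 without Il15 and that of Rsad2 0.863 without Tnfrsf23, both under 2-fold. Hypoxia targets were above 0 in both libraries for 10 of 12 compared genes, but none was past 2-fold, and the summed log2 ratios were 0.25 (0.08 to 0.41) and 0.64 (0.54 to 0.73). That summed difference depended on the choosing genes. It averaged 0.44 over the libraries, and cells chosen without Ero1l, without Ccdc126, without Il15 or without Tnfrsf23 gave -0.118, -0.0148, 0.0853 and 0.151. The summed glycolysis ratio averaged 0.40 and was 0.0328 in cells chosen without Ero1l. The summed NF-kB ratios were -0.24 (-0.41 to -0.07) and 0.03 (-0.06 to 0.12), and their average of -0.104 was -0.702, -0.64 and -0.594 in cells chosen without Ero1l, Tnfrsf23 and Ciart. Against the Mirt1 and Il1f9 neutrophils the average hypoxia ratio was 1.46 and stayed between 0.875, in cells chosen without Ero1l, and 1.57. The summed macrophage markers of the chosen cells had log2 ratios of 0.16 and -1.16 against the other gated cells and of -0.60 and 0.49 against the Mirt1 and Il1f9 neutrophils. They rested on 55 UMIs in the 4T1p and 147 in the 4T1m chosen cells, and their part in any result was not tested.

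The Retnlg and Mmp8 high neutrophils, 431 cells that carry more transcripts of the late granule genes of maturing neutrophils, served as a further comparison. Of 1643 compared genes 77 (4.69%) were higher and 97 (5.9%) lower in the Tnfrsf23 and Ccdc126 neutrophils. Thinning to 1000 UMIs gave 23 higher and 33 lower genes, and 52 lower genes were left where intervals had to leave out 0 and 40 in cells chosen without Tnfrsf23. Hypoxia targets were again higher, 8 of 15 compared genes past 2-fold and none lower, with a summed level of 5518 and 5185 CPM in the comparison cells and log2 ratios of 1.19 (1.05 to 1.33) and 1.11 (1.04 to 1.18). They included Ndrg1 (2.11 and 1.23), P4ha1 (2.12 and 1.37) and Hilpda (1.33 and 1.16). Of 16 compared glycolysis genes Hk2, Pfkp, Eno1 and Ldha were higher past 2-fold. The glucose transporter Slc2a3 was lower, at -2.17 and -1.10. Jun was higher here too (1.71 and 1.65), as were Vdac1 (3.12 and 1.41), the growth arrest and stress gene Gadd45g (1.28 and 2.30), Tmem140 (2.67 and 1.22), and the heat shock genes Hspa1b (5.05 and 1.81) and Hspa1a (2.11 and 1.76), the last at a mean of -1.48 in cells chosen without Ciart. Suv420h1, Plin3, Dock10 and Rybp completed the 10 genes of highest rank. Granule and adhesion genes were lower. Lcn2, a siderophore-binding protein of the specific granules, stood at 538 against 1914 CPM and 471 against 2271 CPM, log2 ratios of -1.83 and -2.27. Anxa1 had -4.66 and -2.42, and Selplg, the ligand of P-selectin, -1.31 and -2.50. Ifitm6 had 1 UMI in each library, with log2 ratios of -4.10 and -6.67, and Mmp12, Hacd4, Pi16, Glul, Dusp2, Dbi, Ltb and Mrgpra2b, also of low rank, had 1 UMI each in the 4T1p cells, where the intervals of Hacd4, Pi16 and Glul included 0. None of 10 compared NF-kB genes was past 2-fold in this comparison, and their summed log2 ratios of -0.10 and 0.12 lay on either side of 0. The average of these ratios lay between -0.827, in cells chosen without Tnfrsf23, and 0.295, in cells with 2000 to 8000 UMIs.

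The lists of higher genes overlapped between the comparisons, which share the chosen cells. Of the 67 and 77 genes, 36 were on both lists (53.7% of the first and 46.8% of the second), among them Hilpda, Ndrg1, P4ha1, Ddit4, Kdm3a, Higd1a, Vegfa, Eno1, Ldha, Fabp5, Vdac1 and Jun. Of the 80 and 97 lower genes 32 were on both (40% and 33.0%), among them Anxa1, Dusp2 and Ltb. The overlap that the shared cells alone would give was not computed, and these percentages are a description only.

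Between the libraries, the chosen cells of the tumor type labelled 4T1m were compared with those labelled 4T1p. Over 1410 genes with 20 UMIs or more in both groups combined, 247 (17.5%) were higher in the 4T1m cells and 95 (6.74%) were lower past 2-fold, at a median log2 ratio of 0.16. Thinning to 1000 UMIs gave 111 higher and 49 lower genes. Interferon-stimulated genes were lower in the 4T1m cells, 7 of 10 compared genes past 2-fold and none higher. Among these 7, the intervals of Ifit1 (-2.52 to 0.14) and Oasl1 (-2.33 to 0.03) included 0. The summed level of the list was 2168 CPM in the 4T1m and 5956 CPM in the 4T1p cells, a log2 ratio of -1.46 (-1.68 to -1.23). Isg15, a ubiquitin-like modifier, stood at 526 CPM in the 4T1m and 2537 CPM in the 4T1p cells. The GTPase gene Ifi47 and the nucleic acid sensor Zbp1 had log2 ratios of -3.20 each, from 6 UMIs in the 4T1m and 14 in the 4T1p cells. The log2 ratio of Isg15 was -2.27, and in cells chosen without Tnfrsf23 it was -0.0346. These directions hold for the libraries as labelled and would turn over if the libraries were exchanged. The same direction held in the other classes, with summed log2 ratios of -1.62 in the Mirt1 and Il1f9, -1.07 in the other gated and -1.88 in the Retnlg and Mmp8 high neutrophils. The study reports high interferon-inducible genes in granulocytic cells enriched in its responding tumors, the opposite direction to these labels. By flow cytometry of tumor suspensions, gated on surface proteins, it reports more of the macrophage subsets in its resistant tumors. On the macrophage side were 776 of 1128 cells passing the filters in the library labelled 4T1p and 906 of 2092 in that labelled 4T1m. These are GR-1-selected cells with more UMIs of the macrophage genes of the gate than of its neutrophil genes. They differ in population and measure from the cells counted by flow cytometry, and the values cannot be set against each other. Whether the libraries were exchanged was not tested.

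MHC class I genes had 5 of 8 compared members lower past 2-fold in the 4T1m cells. Their summed level was 4095 CPM in the 4T1m and 8085 CPM in the 4T1p cells, a log2 ratio of -0.98 (-1.16 to -0.80). H2-K1 and H2-D1, the classical class I heavy chains, had log2 ratios of -1.08 and -1.21, and H2-Q7 had -1.14. The immunoproteasome subunits Psmb8 and Psmb9 had -1.08 and -2.46, with an interval for Psmb8 of -2.51 to 0.49 that included 0. The Mirt1 and Il1f9, other gated and Retnlg and Mmp8 high neutrophils had summed log2 ratios of -0.78, -1.12 and -0.86. Both lists were thus lower in the 4T1m library in every class compared. The summed macrophage markers were lower in the 4T1m library too in the chosen cells, with a log2 ratio of -0.56 (-1.01 to -0.08), in the Mirt1 and Il1f9 (-1.65) and in the Retnlg and Mmp8 high neutrophils (-1.41). They were higher in the other gated neutrophils (0.77). The part of macrophage RNA in these values was not tested.

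Hypoxia targets had a log2 ratio between the libraries of -0.17 (-0.31 to -0.04) in the chosen cells, -0.10 in the Mirt1 and Il1f9, -0.09 in the Retnlg and Mmp8 high and -0.56 (-0.70 to -0.43) in the other gated neutrophils. Glycolysis genes were at -0.59 (-0.70 to -0.49) in the chosen cells, with Gapdh at -1.74, at -0.58 in the Mirt1 and Il1f9, at -0.999 (-1.10 to -0.89) in the other gated and at -0.53 in the Retnlg and Mmp8 high neutrophils. NF-kB genes were at 0.12 (-0.03 to 0.27) in the chosen cells and below 0 in the other classes. They were at -0.18 (-0.22 to -0.13) in the Mirt1 and Il1f9, -0.15 (-0.27 to -0.03) in the other gated and -0.10 (-0.16 to -0.04) in the Retnlg and Mmp8 high neutrophils. Genes of high rank in the 4T1m cells were Cxcl1, a chemokine for neutrophils (816 against 64.5 CPM), Saa3 (520 against 43.0 CPM, 2 UMIs in the 4T1p cells, with 38.1% of the UMIs in 1 cell and a log2 ratio that was down to 1.04 in cells chosen without Tnfrsf23) and Mefv, which encodes pyrin and whose log2 ratio of 3.52 was 0.549 after thinning to 1000 UMIs. Cxcl1 had 3 UMIs in the 4T1p cells, and 1 cell held 26.3% of its UMIs. Its log2 ratio was 1.39 in the Mirt1 and Il1f9 and 2.54 in the other gated neutrophils. In the Retnlg and Mmp8 high neutrophils it went the other way, at -1.31 (-1.47 to -1.16). Hbb-bs, Hba-a1 and Hba-a2 and the intermediate filament gene Vim also ranked high, but 1 cell held 99.2% of the Hbb-bs and 1 cell 78.4% of the Vim UMIs. Hp, the gene of haptoglobin, Gpx1, a glutathione peroxidase, the splicing factor gene Sf3b6 and the MHC class II gene H2-Eb1 were of low rank, with log2 ratios of -2.65, -2.36, -2.11 and -2.21. In these, 1 cell held 40.4% of the Hp and 1 cell 33.3% of the Sf3b6 UMIs, and H2-Eb1 had a log2 ratio of 1.62 (0.31 to 3.29) in the other gated neutrophils. With 21 cells on 1 side, and depth of 46727 against 184614 UMIs, the interval of the ratio left out 0 for 105 of the 247 higher genes.

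**Figure D5:**
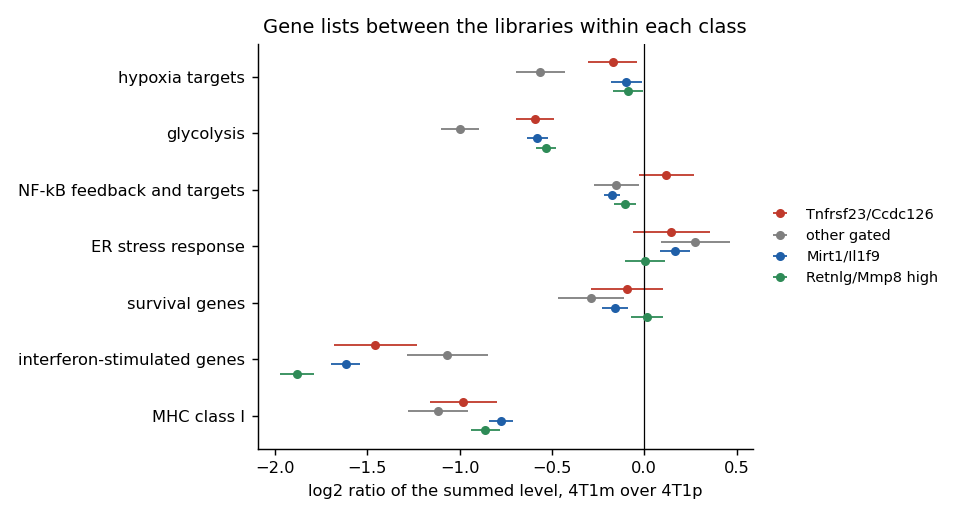
Log2 ratio of the summed level of 7 gene lists in the library labelled 4T1m over that labelled 4T1p, in the Tnfrsf23 and Ccdc126 neutrophils and in the comparison classes, with 95% exact binomial intervals that cover counting error only. Interferon-stimulated genes lie at -1.46, -1.62, -1.07 and -1.88 and MHC class I genes at -0.98, -0.78, -1.12 and -0.86, whereas hypoxia targets lie at -0.17 in the chosen cells.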

How the data were processed

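The deposited values are unnormalized UMI counts for each gene in each barcode. The authors made them with Cell Ranger on mm10 (GRCm38) and kept the barcodes called as cells. The matrix header names software version 3.1.0, while the methods of the study name another version. Symbols repeated among the 28692 genes kept the first identifier (58 symbols).

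From these counts the rule of the opening was applied, Gm42418 and AY036118 (ribosomal RNA) were left out of totals, and UMIs were summed per class and library to CPM. Log2 ratios were taken within each library and averaged with equal weight. Genes needed 20 UMIs in the 2 groups in each library, and a count of 0 was set to a floor of 3 counts. No p-value was computed, since there is 1 library per condition. Scrublet in scanpy 1.11.5 scored doublets at 1% per 1000 cells, in place of the doublet caller of the study, and these cells were kept, except in 1 alternative.

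The choosing genes, 19 gene lists and 9 marker lists were chosen with earlier results of these data known. Named genes are the choosing and opposing genes, list members, the 10 highest and 10 lowest genes past 2-fold in each comparison and the 8 highest and 8 lowest between the libraries. A few genes that meet this rule are not reported here. Promoters were searched over the 250 bases before RefSeq starts, with 100 bases shown. Calls and intervals were run on counts simulated under the counting model that the intervals assume. The simulation had no spread between cells and no choice of cells by their counts. It was a check of the code and could not show how the intervals behave under either. Python 3.11.15, numpy 2.4.6, pandas 2.3.3, scipy 1.17.1 and matplotlib 3.10.9 were used.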

Additional observations from a re-analysis of the deposited data

Results flagged for a closer look

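H2-Ab1, an MHC class II gene, went opposite ways in the libraries against the other gated neutrophils, with a log2 ratio of 1.45 in the library labelled 4T1p and -1.26 in that labelled 4T1m. C1qc, a complement gene of macrophages, did so against the Retnlg and Mmp8 high neutrophils, at -2.01 and 1.02. Neither difference was tested.

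Among the barcodes left out for a mitochondrial share above 12.5%, 8 in the library labelled 4T1p and 11 in that labelled 4T1m met the rest of the rule for Tnfrsf23 and Ccdc126 neutrophils. They entered no comparison.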

How the results depend on the processing

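Of 17 alternative settings, 15 were planned and 2 (requiring that intervals leave out 0, and leaving out the cell with most hemoglobin) were chosen after seeing the data. Summed levels are given here as log2 ratios averaged over both libraries. Under every setting run, hypoxia targets and glycolysis genes stayed higher and NF-kB genes lower in the chosen cells than in the Mirt1 and Il1f9 neutrophils, with hypoxia between 0.875 and 1.57. Leaving out doublets, leaving out the cell with most hemoglobin and keeping the ribosomal RNA genes moved none of the shares, counts of genes or summed levels beyond counting error or 1.5 times. The values that did move were as follows, and the cause was not tested. Asking for 3 choosing genes gave shares of 11.8% in 4T1m and 3 higher genes against the other gated neutrophils. Keeping only cells with a Ptprc UMI gave glycolysis at 1.16 and NF-kB at -0.39 against the Mirt1 and Il1f9 neutrophils, 1 higher gene against the other gated neutrophils, and glycolysis at 0.854 and NF-kB at 0.148 against the Retnlg and Mmp8 high neutrophils. A mitochondrial limit of 5% gave 0 higher genes, 4 lower genes, hypoxia at 0.265 and glycolysis at 0.268 against the other gated neutrophils. A depth range of 2000 to 8000 UMIs gave shares of 10.6% in 4T1m, hypoxia at 1.57 and NF-kB at -0.373 against the Mirt1 and Il1f9 neutrophils, 3 higher genes against the other gated neutrophils, hypoxia at 1.32 and NF-kB at 0.295 against the Retnlg and Mmp8 high neutrophils, and 141 higher genes between the libraries. Thinning to 1000 UMIs gave shares of 11.3% in 4T1m, 30 higher genes, 46 lower genes and NF-kB at -0.768 against the Mirt1 and Il1f9 neutrophils, 1 higher gene and 1 lower gene against the other gated neutrophils, 23 higher genes, 33 lower genes, hypoxia at 0.983 and NF-kB at -0.161 against the Retnlg and Mmp8 high neutrophils, and 111 higher genes and 49 lower genes between the libraries. The mean of per-cell CPM gave NF-kB at -0.89 against the Mirt1 and Il1f9 neutrophils, 5 lower genes against the other gated neutrophils, and hypoxia at 1.02 and NF-kB at -0.22 against the Retnlg and Mmp8 high neutrophils. Choosing without Tnfrsf23 gave shares of 3.89% in 4T1p and 8.13% in 4T1m, 26 lower genes, hypoxia at 1.1 and NF-kB at -1.41 against the Mirt1 and Il1f9 neutrophils, 3 higher genes, 5 lower genes, hypoxia at 0.151, glycolysis at 0.273 and NF-kB at -0.64 against the other gated neutrophils, 40 lower genes, hypoxia at 0.98 and NF-kB at -0.827 against the Retnlg and Mmp8 high neutrophils, and 121 higher genes between the libraries. Choosing without Ccdc126 gave shares of 5.56% in 4T1p and 9.62% in 4T1m, 44 lower genes, hypoxia at 0.933, glycolysis at 0.781 and NF-kB at -1.05 against the Mirt1 and Il1f9 neutrophils, 3 higher genes, 4 lower genes, hypoxia at -0.0148, glycolysis at 0.0787 and NF-kB at -0.234 against the other gated neutrophils, 53 lower genes, hypoxia at 0.815, glycolysis at 0.595 and NF-kB at -0.449 against the Retnlg and Mmp8 high neutrophils, and 142 higher genes and 62 lower genes between the libraries. Choosing without Ciart gave shares of 12.9% in 4T1m, hypoxia at 1.32 and NF-kB at -0.973 against the Mirt1 and Il1f9 neutrophils, 0 higher genes, 4 lower genes, glycolysis at 0.564 and NF-kB at -0.594 against the other gated neutrophils, and glycolysis at 0.884 and NF-kB at -0.391 against the Retnlg and Mmp8 high neutrophils. Choosing without Ero1l gave shares of 4.44% in 4T1p and 6.47% in 4T1m, 49 lower genes, hypoxia at 0.875, glycolysis at 0.726 and NF-kB at -1.32 against the Mirt1 and Il1f9 neutrophils, 2 higher genes, 9 lower genes, hypoxia at -0.118, glycolysis at 0.0328 and NF-kB at -0.702 against the other gated neutrophils, 54 lower genes, hypoxia at 0.791, glycolysis at 0.574 and NF-kB at -0.752 against the Retnlg and Mmp8 high neutrophils, and 87 higher genes and 55 lower genes between the libraries. Choosing without Il15 gave shares of 10.1% in 4T1m, hypoxia at 1.3 and NF-kB at -0.693 against the Mirt1 and Il1f9 neutrophils, 3 higher genes, 5 lower genes and hypoxia at 0.0853 against the other gated neutrophils, and NF-kB at -0.108 against the Retnlg and Mmp8 high neutrophils. A minimum of 50 UMIs per gene gave 33 higher genes and 40 lower genes against the Mirt1 and Il1f9 neutrophils, 2 higher genes and 1 lower gene against the other gated neutrophils, 40 higher genes and 46 lower genes against the Retnlg and Mmp8 high neutrophils, and 64 higher genes and 28 lower genes between the libraries. No minimum per gene gave 171 higher genes against the Mirt1 and Il1f9 neutrophils, 27 higher genes and 47 lower genes against the other gated neutrophils, 181 higher genes against the Retnlg and Mmp8 high neutrophils, and 497 higher genes and 327 lower genes between the libraries. Calling only genes whose interval left out 0 gave 29 lower genes against the Mirt1 and Il1f9 neutrophils, 1 lower gene against the other gated neutrophils, 52 lower genes against the Retnlg and Mmp8 high neutrophils, and 105 higher genes between the libraries. Single genes past 2-fold turned to the other side of 0 only where the choosing set was cut by a gene. Without Tnfrsf23 Fabp5 was at -0.204 against the other gated neutrophils. Without Ccdc126 Fabp5 was at -0.0481 and Hist1h1c at -1.5 in that comparison, and Hspa1b was at -0.219 against the Mirt1 and Il1f9 neutrophils. Without Ciart Hspa1b was at -0.94 there and Hspa1a at -1.48 against the Retnlg and Mmp8 high neutrophils. Without Ero1l Hist1h1c was at -0.633 and Impa2 at -0.797 against the other gated neutrophils, and without Il15 Fabp5 was at -0.00941, Hist1h1c at -0.111 and Impa2 at -0.191. Of the other values for single genes and lists, 787 stayed within counting error and 64 did not. Some summed levels near 0 changed sign. Interferon-stimulated genes, at -0.355 against the Mirt1 and Il1f9 neutrophils, reached 0.0965 in cells chosen without Ccdc126, and at 0.122 against the Retnlg and Mmp8 high neutrophils they reached -0.248 without Tnfrsf23. ER stress genes against the other gated neutrophils lay between -0.152 and 0.257. Isg15 between the libraries was at -0.0346 and Ddit4 against the Mirt1 and Il1f9 neutrophils at 0.583 without Tnfrsf23, and both were then under 2-fold.

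No paired analysis was possible because each tumor type has 1 library and no test was run. Leaving out a replicate could not be done for the same reason. The 21 cells of the 4T1p library set the precision of every call made in both libraries. Genes with 1 UMI in them had intervals several log2 units wide, and differences between the libraries cannot be told apart from differences between 2 preparations.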
